A study of Mus musculus with 11 samples.

Results

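The cells of the study were alphaTC1-6, a glucagon-producing line of immortalised alpha cells from the mouse pancreas, in which Mettl3 or Mettl14 was knocked down. Their proteins form the methyltransferase that places N6-methyladenosine on messenger RNA in the nucleus. The libraries analysed here came from 4 samples with Mettl3 knockdown (Mettl3 KD), 4 with Mettl14 knockdown (Mettl14 KD) and 3 transfected with a scramble control. All groups shared the transfection and the growth medium, were transfected at a stated confluency of 70% while being plated, and were collected 72 h after the knockdown. No source used here names the knockdown reagent, and every library comes from the same cell line. The account follows 32 genes of cholesterol synthesis, uptake, handling and efflux, chosen by symbol from the 53947 gene rows. All 32 were among the 14133 genes with enough counts to be tested. They comprised 8 enzymes of the early mevalonate pathway, 10 of late sterol synthesis, 6 genes of SREBP control, 2 of lipoprotein uptake, 4 of intracellular handling and 2 of efflux driven by the liver X receptors, LXR.

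Animal cells build cholesterol from acetyl-CoA through mevalonate, farnesyl diphosphate, squalene and lanosterol, and they also take it up in lipoproteins. The transcription factor SREBP2, made from Srebf2, waits in the endoplasmic reticulum bound to the sterol sensor Scap. When membranes are short of sterol it travels to the Golgi, is cut free by the Mbtps1 and Mbtps2 proteases, and switches on the synthesis enzymes and the uptake receptors, whereas Insig proteins hold it back when sterol is plentiful. Oxidised sterols activate LXR, which switches on the exporters Abca1 and Abcg1. In islet cells, membrane cholesterol is known to bear on granules and exocytosis.

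Levels are given as CPM, counts scaled to the size of each library. Both targets were lower in their own group. Mettl3 had 5.06, 5.01, 5.98 and 5.30 CPM in Mettl3 KD, 15.9, 14.2, 16.5 and 15.0 in Mettl14 KD, and 14, 14.7 and 16.0 CPM in scramble. Mettl14 had 29.1, 30.5, 29.7 and 28.1 CPM in Mettl3 KD, 14.9, 14.2, 15.5 and 13.9 in Mettl14 KD, and 25.4, 23.5 and 26.8 CPM in scramble. Neither knockdown was complete: Mettl3 stood at 35.8% of scramble in Mettl3 KD and Mettl14 at 58.1% in Mettl14 KD. Mettl14 was also above scramble in Mettl3 KD, by a log2 fold change of 0.22 ± 0.06 (edgeR adjusted p = 0.00494). The alpha cell label held for most of its markers: Gcg, the glucagon gene, had 32099 to 33538 CPM in Mettl3 KD, 36419 to 38728 in Mettl14 KD and 28738 to 36317 in scramble, and 9 of 12 markers were tested. Of the rest, Gc was at 0 in every library, and Loxl4 and Dpp4 did not exceed 0.100 and 0.350 CPM in any. Of 8 beta cell genes 3 were tested, and the list summed to 50.6 to 54.5 CPM in Mettl3 KD, 50.3 to 56.1 CPM in Mettl14 KD and 56.1 to 73.7 CPM in scramble. Nearly all of that was Nkx6-1, with 48.9 to 53.2 CPM in Mettl3 KD, 49.0 to 54.8 CPM in Mettl14 KD and 54.3 to 72.0 CPM in scramble. Iapp and Mafa were tested at lower levels, reaching 1.11 and 0.700 CPM at most, the insulin genes did not exceed 0.0960 CPM, and Pdx1 was at 0 in every library. None of 4 delta, PP and epsilon cell genes was tested, and their sum did not exceed 0.357 CPM in any library. For 6 acinar and ductal genes the sum was 15.7 to 19.5 CPM in Mettl3 KD, 15.7 to 19.7 CPM in Mettl14 KD and 19.7 to 22.7 CPM in scramble. The part of these other cell types in the results was not tested. Library totals ran between 19576632 and 22406527 counts. The lowest total was that of scramble replicate 2, which also held transcripts of other tissue: 18 lung and blood genes summed to 149 CPM there, against 7.23 to 10.1 CPM in Mettl3 KD, 5.13 to 8.27 CPM in Mettl14 KD, and 6.55 to 8.02 CPM in scramble replicates 1 and 3. The lung and blood genes were chosen because earlier results of these data showed them in scramble replicate 2. Their sum there is therefore no independent check of that library. Scramble replicate 2 was the lowest of the 3 scramble libraries for 14 of the 18 synthesis enzymes. Counts of calls are therefore given with and without it. In RNA from whole cultures, fewer cells of a type and less RNA per cell cannot be told apart.

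Most of the 32 genes were lower in both knockdowns, and nearly all synthesis enzymes moved the same way. In Mettl3 KD against scramble, 25 of 32 were called lower by the edgeR quasi-likelihood test, at an adjusted p under 0.05 over all genes tested, where 15.8% of all genes were called lower and 31.3% in either direction. The share of all genes called higher was 15.5%, and 1 of the 32, Scap, was among them. In Mettl14 KD against scramble, 23 of 32 were called lower and none higher, against 10.8% and 10.1% of all genes and 20.9% in either direction. At an unadjusted p under 0.05 the counts were 25 and 0, against 2386 and 2351 of the 14133 genes tested. DESeq2 and limma-voom also called 0 of the 32 higher, against 1159 and 1406 of all genes. The median log2 fold change of the 32 was -0.40 in Mettl3 KD and -0.36 in Mettl14 KD, against 0.00 over all genes in each. In 24 of the 32 genes all libraries of Mettl3 KD lay below all scramble libraries, and 24 did so for Mettl14 KD. Over all genes that share was 17.9% for Mettl3 KD and 14.6% for Mettl14 KD, and with genes that lay wholly above scramble it was 35.5% and 28.9%. The same 3 scramble libraries serve both comparisons, so the values are set side by side and neither stands as support for the other. Without scramble replicate 2 the counts were 29 lower and 1 higher in Mettl3 KD, and 26 lower and 0 higher in Mettl14 KD. Of the 14316 genes tested in that fit, 2155 were lower and 2188 higher in Mettl3 KD, and 1449 lower and 1337 higher in Mettl14 KD.

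**Figure D1:**
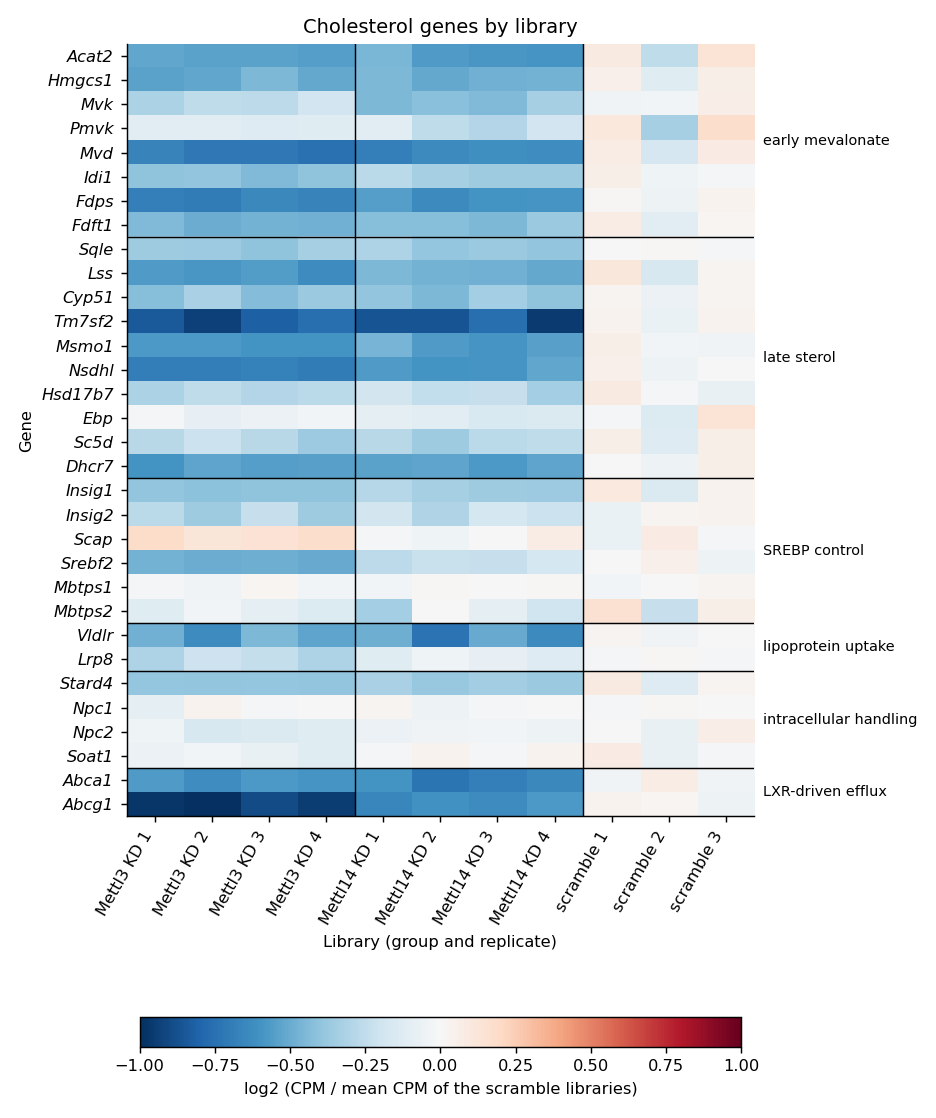
Log2 of each library's CPM over the mean scramble CPM for the 32 genes (rows, by pathway step) in the 4 Mettl3 KD, 4 Mettl14 KD and 3 scramble libraries (columns); blue is lower and red higher. The synthesis enzymes are blue or pale blue across all 8 knockdown libraries, with Ebp and Pmvk palest by group mean. Pmvk in Mettl14 KD overlaps in shade with other enzymes. Scap is red in the Mettl3 KD libraries, and scramble replicate 2 is the lowest scramble library in 20 of the 32 rows.

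Summed over the 18 synthesis enzymes, the level was 2080 ± 9.71 CPM in Mettl3 KD (SD, n = 4), 2122 ± 37.9 CPM in Mettl14 KD (n = 4) and 2880 ± 139 CPM in scramble (n = 3). The knockdown libraries ran between 2071 and 2092 CPM in Mettl3 KD and between 2091 and 2177 CPM in Mettl14 KD, and the scramble libraries had 2979, 2721 and 2939 CPM. No knockdown library reached any scramble library. The sum was 72.2% of scramble in Mettl3 KD and 73.7% in Mettl14 KD. In each knockdown 16 of the 18 enzymes were called lower, with a median log2 fold change of -0.49 in Mettl3 KD and -0.45 in Mettl14 KD. The exceptions were Pmvk and Ebp in both. Without scramble replicate 2 all 18 were called lower in Mettl3 KD and in Mettl14 KD, and the medians were -0.54 and -0.50. Of all 14316 genes tested in that fit, 2155 were lower in Mettl3 KD and 1449 in Mettl14 KD.

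**Figure D2:**
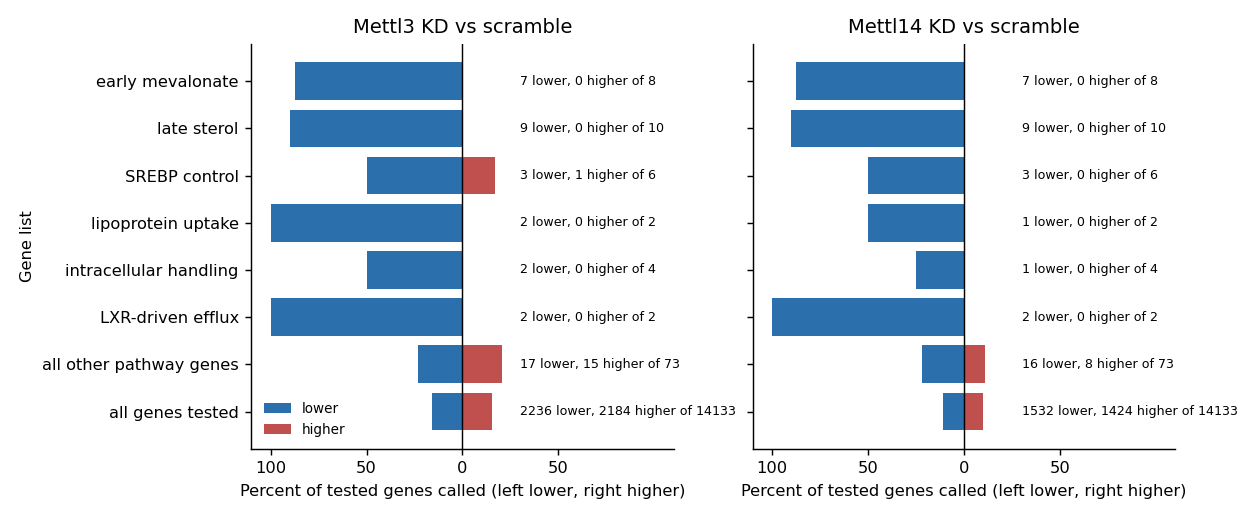
Share of tested genes called lower (bars to the left) or higher (bars to the right) at an adjusted p under 0.05 in each pathway step, in the other pathway genes and in all genes tested, for Mettl3 KD against scramble (left panel) and Mettl14 KD against scramble (right panel). In both panels the bars of the 2 enzyme steps reach 87.5% and 90.0% to the left, against 15.8% and 10.8% for all genes.

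The promoters of the enzymes are shown because SREBP2 acts at promoters, together with NF-Y, a factor that binds the letters CCAAT. RefSeq windows of GRCm38.p6, covering 250 bases before and 50 after the start site, were found for 26 of the 32 genes, 15 of them enzymes. Fdps, Fdft1, Sqle, Stard4, Npc1 and Abcg1 had no window. The letters searched, on both strands, were TCACNCCAC for a sterol regulatory element, CCAAT for NF-Y and, for LXR, the DR4 repeat, in which AGGTCA is followed on the same strand by another copy after 4 bases. No 2 of these motifs overlapped in the windows printed. CCAAT occurred in 14 of the 15 enzymes with a window (93.3%), against 44.1% of 10233 tested genes with a window and 41.1% of all 27025 genes with one. A gene was counted if any of its windows held the letters, and some windows of Dhcr7 and Pmvk held none. All 9 late sterol enzymes that had a window carried CCAAT, as did 20 of the 26 genes overall. The TCACNCCAC letters occurred in Hmgcs1 alone of the 26, against 1.33% of tested genes. Only this pattern was searched, so a window without it is not shown to lack a sterol regulatory element. The LXR repeat occurred in none of the 26, where Abca1 was the only exporter with a window. It also occurred in 0 of the 10233 tested genes and in 4 of 27025 genes, so its absence here tells nothing about the 26. The 250 bases before the start are printed below, 5′ to 3′ on the gene's strand, with motif matches in capitals (ATTGG is CCAAT on the other strand). They are Hmgcs1 (chr13:119690101-119690350, plus strand), which holds both motifs; Msmo1 (chr8:64733579-64733828, minus strand) and Nsdhl (chrX:72918271-72918520, plus strand), neighbours in the pathway; Tm7sf2 (chr19:6067851-6068100, minus strand), the enzyme with the lowest fold changes; and Ebp (chrX:8193513-8193762, minus strand), an enzyme called in neither knockdown.
Hmgcs1: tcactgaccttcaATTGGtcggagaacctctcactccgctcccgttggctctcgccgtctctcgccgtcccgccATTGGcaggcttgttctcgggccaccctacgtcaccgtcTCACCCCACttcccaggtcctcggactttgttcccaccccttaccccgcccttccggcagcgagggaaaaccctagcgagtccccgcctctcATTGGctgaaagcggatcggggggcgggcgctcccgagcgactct
Msmo1: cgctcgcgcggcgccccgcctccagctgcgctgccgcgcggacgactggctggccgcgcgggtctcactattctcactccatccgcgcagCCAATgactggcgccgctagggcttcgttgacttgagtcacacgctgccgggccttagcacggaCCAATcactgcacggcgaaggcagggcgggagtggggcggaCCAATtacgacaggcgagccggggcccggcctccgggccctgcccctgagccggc
Nsdhl: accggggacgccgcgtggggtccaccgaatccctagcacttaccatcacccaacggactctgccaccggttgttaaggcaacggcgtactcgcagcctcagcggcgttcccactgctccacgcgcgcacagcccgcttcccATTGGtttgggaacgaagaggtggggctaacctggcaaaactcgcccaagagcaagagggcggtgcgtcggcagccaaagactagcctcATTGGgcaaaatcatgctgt
Tm7sf2: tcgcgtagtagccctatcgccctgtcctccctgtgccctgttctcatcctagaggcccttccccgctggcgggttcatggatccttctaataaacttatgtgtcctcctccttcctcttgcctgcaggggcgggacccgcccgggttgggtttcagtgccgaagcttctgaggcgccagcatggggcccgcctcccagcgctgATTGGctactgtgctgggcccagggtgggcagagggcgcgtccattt
Ebp: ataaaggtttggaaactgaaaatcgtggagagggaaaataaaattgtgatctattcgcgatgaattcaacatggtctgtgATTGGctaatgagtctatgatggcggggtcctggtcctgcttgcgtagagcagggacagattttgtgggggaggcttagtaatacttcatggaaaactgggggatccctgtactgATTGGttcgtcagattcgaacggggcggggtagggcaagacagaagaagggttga

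In these sequences the TCACCCCAC of Hmgcs1 begins 137 bases before the start, with CCAAT matches at 237, 176 and 45 bases before it. Msmo1 carries CCAAT at 160, 96 and 55 bases before the start, Nsdhl at 109 and 20, and Tm7sf2 at 47. Ebp, which was not called, also carries it, at 170 and 55 bases before the start. So does Pmvk, the other enzyme not called, at 136 in its window at chr3:89454291-89454540. The Pmvk window at chr3:89459321-89459570 holds none. The presence of CCAAT therefore did not separate the enzymes that were called from those that were not. With CCAAT in 14 of the 15 enzymes with a window, it could hardly have done so. A match is no measure of binding, and no binding was measured here.

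Among the early mevalonate enzymes, 7 of 8 were lower in each knockdown, with a median log2 fold change of -0.49 in Mettl3 KD and -0.45 in Mettl14 KD. Fdps, farnesyl diphosphate synthase, which makes the branch point between sterols and other isoprenoids, had 164, 162, 168 and 166 CPM in Mettl3 KD, 180, 169, 174 and 175 in Mettl14 KD, and 266, 254 and 270 CPM in scramble. All 8 knockdown libraries lay below every scramble library. Against scramble, its log2 fold change was -0.67 ± 0.03 in Mettl3 KD (SE; edgeR adjusted p = 6.06e-12) and -0.59 ± 0.03 in Mettl14 KD (adjusted p = 6.22e-11). Mvd, which decarboxylates mevalonate diphosphate, had 56.3, 54.5, 54.6 and 53.5 CPM in Mettl3 KD, 55.9, 57.8, 58.7 and 58.4 in Mettl14 KD, and 94.2, 79.7 and 95.0 CPM in scramble. The groups did not overlap, although scramble replicate 2 was well below its fellows. Mvd was 1.64-fold lower in Mettl3 KD (adjusted p = 1.89e-09) and 1.56-fold lower in Mettl14 KD (adjusted p = 1.46e-08).

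Hmgcs1, which condenses acetoacetyl-CoA with acetyl-CoA and whose promoter is printed above, averaged 203 ± 5.07 CPM in Mettl3 KD, 206 ± 3.91 CPM in Mettl14 KD and 288 ± 20.0 CPM in scramble. This was 70.6% of scramble in Mettl3 KD (adjusted p = 6.49e-09) and 71.6% in Mettl14 KD (adjusted p = 1.95e-08). Acat2, which makes the acetoacetyl-CoA, averaged 103 ± 0.942 CPM in Mettl3 KD, 102 ± 4.47 CPM in Mettl14 KD and 149 ± 21.2 CPM in scramble. Its scramble libraries were spread, with 125 CPM in replicate 2 and 159 and 164 CPM in the others, yet all lay above the knockdowns. Its log2 fold change was -0.54 ± 0.08 in each knockdown (adjusted p = 5.83e-04 in Mettl3 KD and 9.53e-04 in Mettl14 KD). Idi1, the isopentenyl diphosphate isomerase, was at 75.3% of scramble in Mettl3 KD and 79.8% in Mettl14 KD. Fdft1, squalene synthase, the first enzyme committed to sterols, was at 72.0% in Mettl3 KD and 74.9% in Mettl14 KD.

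Of the kinases of the pathway, Mvk was lower in both knockdowns and Pmvk passed in neither. Mvk, mevalonate kinase, had 34.1, 35.7, 35.4 and 37.2 CPM in Mettl3 KD, 31.1, 31.8, 31.4 and 33.8 in Mettl14 KD, and 41.4, 41.7 and 44.5 CPM in scramble. Its 3 groups did not overlap, and Mettl14 KD was the lowest. The fitted log2 fold change was -0.26 ± 0.05 in Mettl3 KD (adjusted p = 2.50e-04) and -0.41 ± 0.05 in Mettl14 KD (adjusted p = 2.25e-06). Pmvk, phosphomevalonate kinase, averaged 63.9 ± 0.596 CPM in Mettl3 KD, 59.8 ± 3.32 CPM in Mettl14 KD and 69.3 ± 12.4 CPM in scramble, and was called in neither (log2 fold change -0.12 in Mettl3 KD and -0.22 in Mettl14 KD). Its scramble libraries had 74.5, 55.1 and 78.2 CPM, so that replicate 2 lay below all knockdown libraries and the others above them. Without that replicate the log2 fold changes were -0.26 in Mettl3 KD (adjusted p = 6.51e-06) and -0.35 in Mettl14 KD (adjusted p = 3.64e-08).

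In late sterol synthesis 9 of 10 enzymes were lower in each knockdown, with medians of -0.47 in Mettl3 KD and -0.44 in Mettl14 KD. Nsdhl, a dehydrogenase that helps strip methyl groups from the sterol ring, had 80.9, 80.8, 81.5 and 80.3 CPM in Mettl3 KD, 87.9, 86.2, 86.6 and 90.9 in Mettl14 KD, and 135, 126 and 130 CPM in scramble. The Mettl3 KD libraries were tightly grouped, all below Mettl14 KD, which in turn lay below scramble. The log2 fold change was -0.69 ± 0.03 in Mettl3 KD (adjusted p = 7.81e-12) and -0.57 ± 0.03 in Mettl14 KD (adjusted p = 2.18e-10). Msmo1, the oxygenase of the same demethylation, had 162, 162, 160 and 160 CPM in Mettl3 KD, 175, 163, 161 and 166 in Mettl14 KD, and 252, 237 and 236 CPM in scramble. Knockdown and scramble libraries stood apart, while the knockdowns overlapped with each other. Msmo1 was at 66.6% of scramble in Mettl3 KD (adjusted p = 1.05e-10) and at 68.7% in Mettl14 KD (adjusted p = 5.12e-10).

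Sqle, squalene epoxidase, an oxygen-dependent control point of the pathway, had 246, 245, 238 and 250 CPM in Mettl3 KD, 254, 241, 243 and 239 in Mettl14 KD, and 316, 318 and 311 CPM in scramble. Every knockdown library was below every scramble library, and the scramble libraries agreed closely, replicate 2 included. Against scramble, its log2 fold change was -0.36 ± 0.03 in Mettl3 KD (adjusted p = 2.81e-08) and -0.37 ± 0.03 in Mettl14 KD (adjusted p = 3.89e-08). Tm7sf2, a sterol reductase, had the lowest fold changes of the enzymes: 12.2 ± 0.628 CPM in Mettl3 KD, 12 ± 0.702 CPM in Mettl14 KD and 21.8 ± 0.907 CPM in scramble. That is 56.1% of scramble in Mettl3 KD (adjusted p = 4.13e-09) and 55.2% in Mettl14 KD (adjusted p = 5.46e-09). Over all genes tested, 1.87% had a lower log2 fold change than Tm7sf2 in Mettl3 KD and 1.53% in Mettl14 KD.

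The other late enzymes were also lower in both knockdowns, apart from Ebp. Lss, which closes squalene epoxide into lanosterol, was at 66.7% of scramble in Mettl3 KD and 71.8% in Mettl14 KD. Dhcr7, which makes cholesterol from its last dehydro precursor, was at 68.1% in Mettl3 KD and 68.8% in Mettl14 KD. Cyp51, the lanosterol demethylase, was at 76.5% in Mettl3 KD and 76.0% in Mettl14 KD. Hsd17b7, a ketoreductase of sterol demethylation, and Sc5d, a sterol desaturase, were both at 82.1% in Mettl3 KD, and at 84.2% and 81.8% in Mettl14 KD. All of these passed the test, with adjusted p of 4.03e-04 or less. Ebp, the sterol isomerase, averaged 82.0 ± 1.55 CPM in Mettl3 KD, 77.8 ± 1.74 CPM in Mettl14 KD and 84.7 ± 8.12 CPM in scramble. Its groups overlapped with scramble, which ran between 77.0 and 93.1 CPM, and the log2 fold changes were -0.05 (95% interval -0.16 to 0.06) in Mettl3 KD and -0.12 (-0.23 to -0.02; adjusted p = 0.0679) in Mettl14 KD. Without scramble replicate 2, Ebp was called lower in both, with log2 fold changes of -0.11 in Mettl3 KD (adjusted p = 0.0237) and -0.19 in Mettl14 KD (adjusted p = 4.28e-04). In Mettl14 KD it also passed with no filter on low counts (adjusted p = 0.0336).

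**Figure D3:**
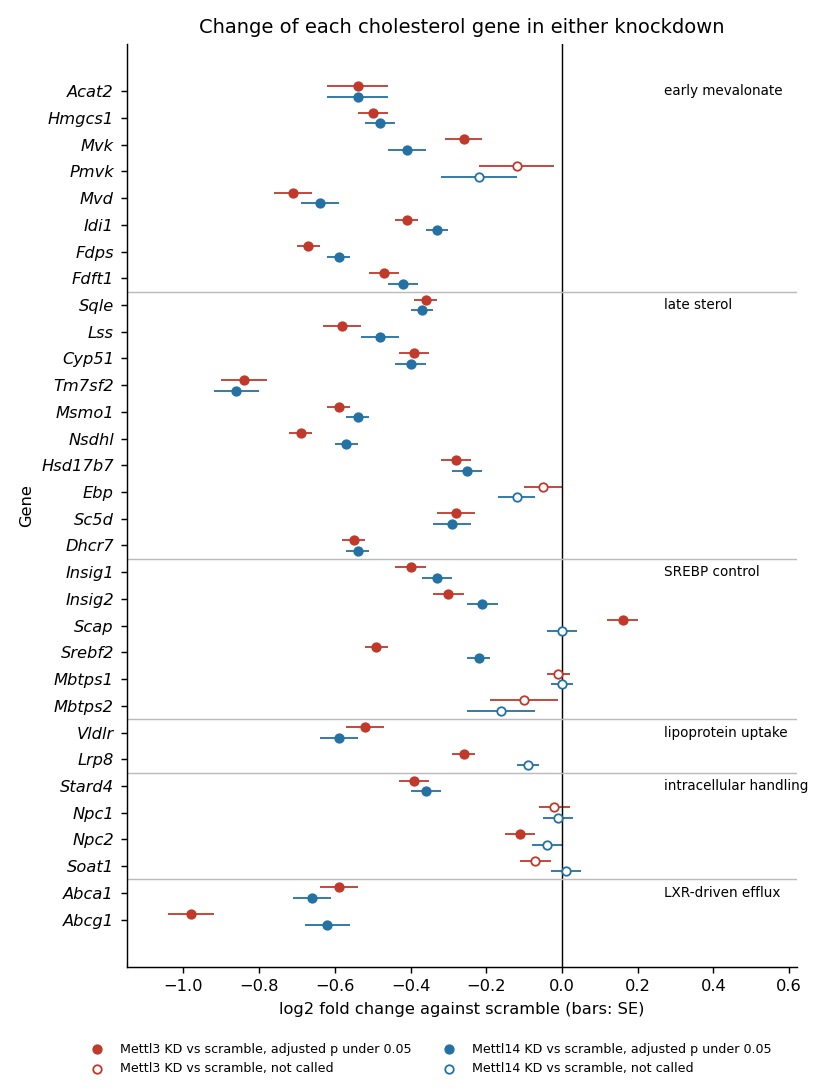
Log2 fold change against scramble of each of the 32 genes in Mettl3 KD (red) and Mettl14 KD (blue), with bars of 1 SE; filled points passed an adjusted p of 0.05 and open points did not. The enzyme points lie between -0.86 and -0.05, Abcg1 in Mettl3 KD is the lowest at -0.98, and Scap in Mettl3 KD is the only filled point to the right of 0.

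The genes that control SREBP did not move as 1 group. In each knockdown 3 of 6 were lower, namely Srebf2, Insig1 and Insig2, and in Mettl3 KD Scap was higher. Srebf2, the gene of SREBP2 itself, had 349, 343, 346 and 342 CPM in Mettl3 KD, 405, 416, 414 and 430 in Mettl14 KD, and 483, 503 and 468 CPM in scramble. The 3 groups formed separate steps with no overlap, Mettl3 KD lowest and scramble highest. The fitted log2 fold change was -0.49 ± 0.03 in Mettl3 KD (adjusted p = 5.59e-10) and -0.22 ± 0.03 in Mettl14 KD (adjusted p = 4.94e-05). Scap, the sterol sensor that escorts SREBP2, had 151, 145, 147 and 150 CPM in Mettl3 KD, 131, 129, 133 and 140 in Mettl14 KD, and 127, 141 and 131 CPM in scramble. Only Mettl3 KD stood above scramble, with a log2 fold change of 0.16 ± 0.04 (adjusted p = 0.00306), whereas Mettl14 KD overlapped with scramble at 0.00 ± 0.04 (95% interval -0.09 to 0.09).

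The Insig genes encode the retention proteins of the endoplasmic reticulum, and Insig1 is itself a target of SREBP. Insig1 had 254, 251, 253 and 253 CPM in Mettl3 KD, 275, 265, 262 and 260 in Mettl14 KD, and 358, 302 and 343 CPM in scramble. All knockdown libraries lay below scramble, whose replicate 2 was the nearest to them. The log2 fold change was -0.40 ± 0.04 in Mettl3 KD (adjusted p = 6.79e-07) and -0.33 ± 0.04 in Mettl14 KD (adjusted p = 1.15e-05). Insig2 had 91.4, 86.2, 93.7 and 86.0 CPM in Mettl3 KD, 97.1, 89.3, 97.6 and 94.6 in Mettl14 KD, and 105, 112 and 113 CPM in scramble. The knockdowns overlapped with each other but not with scramble, and the fold change was 1.23-fold lower in Mettl3 KD (adjusted p = 1.42e-05) and 1.16-fold lower in Mettl14 KD (adjusted p = 8.41e-04). The proteases that release SREBP2 were not called: Mbtps1 averaged 236 ± 4.28 CPM in Mettl3 KD, 238 ± 3.01 CPM in Mettl14 KD and 238 ± 4.20 CPM in scramble. Its 95% intervals of log2 fold change were -0.08 to 0.06 in Mettl3 KD and -0.07 to 0.07 in Mettl14 KD, and neither reached the change of any enzyme called lower. Mbtps2 averaged 25.0 ± 0.855 CPM in Mettl3 KD, 24.0 ± 2.41 CPM in Mettl14 KD and 26.7 ± 3.62 CPM in scramble. Its intervals were wider, -0.29 to 0.10 in Mettl3 KD and -0.36 to 0.04 in Mettl14 KD, and it was called lower in both without scramble replicate 2 (-0.20 in Mettl3 KD, adjusted p = 0.0215, and -0.26 in Mettl14 KD, adjusted p = 0.00452).

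**Figure D4:**
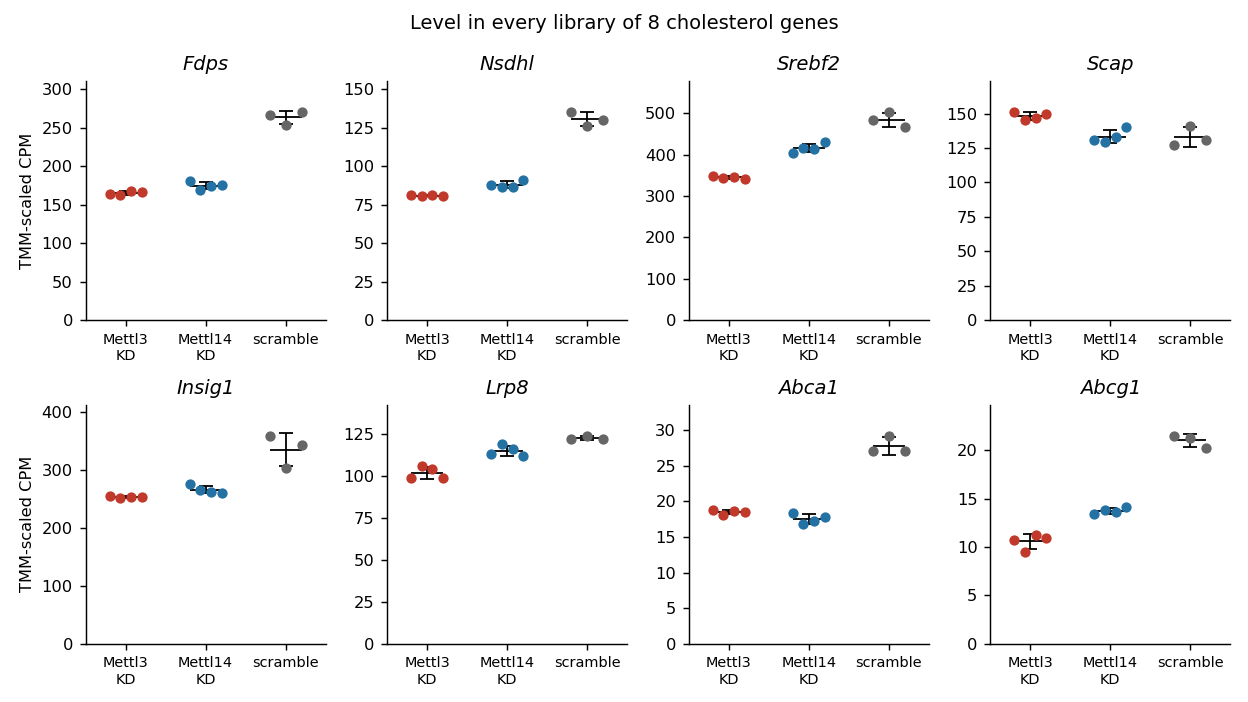
TMM-scaled CPM in every library (points) with the mean and SD of the group (bars) for 8 genes in Mettl3 KD (n = 4), Mettl14 KD (n = 4) and scramble (n = 3); each axis starts at 0. Fdps, Nsdhl, Insig1, Abca1 and Abcg1 are below scramble in all 8 knockdown libraries, Srebf2 forms 3 steps, Scap is raised in Mettl3 KD alone, and Lrp8 is lowest in Mettl3 KD.

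Of the 2 receptors of lipoprotein uptake, Vldlr was lower in both knockdowns and Lrp8 passed the test in Mettl3 KD. Vldlr, which binds very low density lipoprotein, had 103, 92.8, 105 and 99.6 CPM in Mettl3 KD, 102, 86.0, 101 and 92.4 in Mettl14 KD, and 146, 140 and 144 CPM in scramble. Every knockdown library was below scramble, with more spread among knockdown than among scramble libraries. Against scramble, its log2 fold change was -0.52 ± 0.05 in Mettl3 KD (adjusted p = 2.97e-06) and -0.59 ± 0.05 in Mettl14 KD (adjusted p = 1.29e-06). Lrp8, a receptor of the same family that also binds reelin, had 99.0, 106, 104 and 99.1 CPM in Mettl3 KD, 113, 119, 116 and 112 in Mettl14 KD, and 122, 124 and 122 CPM in scramble. Both knockdowns lay below scramble in every library, Mettl3 KD further than Mettl14 KD. The fitted log2 fold change was -0.26 ± 0.03 in Mettl3 KD (adjusted p = 7.11e-06) and -0.09 ± 0.03 in Mettl14 KD, where it did not pass (adjusted p = 0.0728).

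In intracellular handling 1 of 4 genes was lower in both knockdowns. Stard4, a soluble protein that carries sterol between membranes, had 945, 938, 943 and 937 CPM in Mettl3 KD, 984, 947, 967 and 952 in Mettl14 KD, and 1314, 1126 and 1259 CPM in scramble. The knockdown libraries did not reach scramble, and the log2 fold change was -0.39 ± 0.04 in Mettl3 KD (adjusted p = 2.19e-07) and -0.36 ± 0.04 in Mettl14 KD (adjusted p = 1.20e-06). Per transcript length it was also the most abundant of the 32, as described below. Npc2, which takes cholesterol out of lysosomes together with Npc1, had 234, 216, 218 and 222 CPM in Mettl3 KD, 232, 235, 236 and 233 in Mettl14 KD, and 241, 229 and 253 CPM in scramble. Mettl3 KD overlapped with scramble, and although Npc2 was called lower there (log2 fold change -0.11 ± 0.04, adjusted p = 0.0200), it did not pass without scramble replicate 3 (-0.07, adjusted p = 0.182), without Mettl3 KD replicate 2 or 3 (adjusted p = 0.0640 and 0.0596), or with only the groups compared in the fit (adjusted p = 0.0645). In Mettl14 KD it was at -0.04 ± 0.04 and was not called. Npc1 averaged 71.7 ± 2.55 CPM in Mettl3 KD, 72.1 ± 1.56 CPM in Mettl14 KD and 72.5 ± 0.856 CPM in scramble, with 95% intervals of -0.10 to 0.07 in Mettl3 KD and -0.09 to 0.08 in Mettl14 KD. Soat1, which esterifies cholesterol for storage, averaged 335 ± 9.38 CPM in Mettl3 KD, 355 ± 6.00 CPM in Mettl14 KD and 352 ± 19.3 CPM in scramble. It was called in neither knockdown, with log2 fold changes of -0.07 and 0.01, but in Mettl3 KD it was called lower without scramble replicate 2 (-0.11, adjusted p = 0.00846).

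Both LXR-driven exporters were lower in both knockdowns. Abca1, which passes cholesterol to apolipoprotein acceptors, had 18.8, 18.1, 18.7 and 18.5 CPM in Mettl3 KD, 18.4, 16.8, 17.3 and 17.8 in Mettl14 KD, and 27.1, 29.2 and 27.1 CPM in scramble. All scramble libraries were above all knockdown libraries, and the knockdowns overlapped. The log2 fold change was -0.59 ± 0.05 in Mettl3 KD (adjusted p = 4.91e-08) and -0.66 ± 0.05 in Mettl14 KD (adjusted p = 1.77e-08). Abcg1, which moves sterol towards lipoprotein particles and within cells, had 10.7, 9.52, 11.3 and 10.9 CPM in Mettl3 KD, 13.4, 13.8, 13.6 and 14.1 in Mettl14 KD, and 21.5, 21.3 and 20.3 CPM in scramble. Its groups formed 3 separate steps, Mettl3 KD lowest. Abcg1 was 1.98-fold lower in Mettl3 KD (adjusted p = 4.61e-10) and 1.53-fold lower in Mettl14 KD (adjusted p = 3.46e-07). In Mettl3 KD 1.17% of all genes tested had a lower log2 fold change than Abcg1, and in Mettl14 KD 3.23% did.

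The knockdowns were also set directly against each other. In Mettl3 KD against Mettl14 KD, 4 of 32 were called lower and 2 higher (18.8% in all), where 4.44% and 3.66% of all genes were (8.10% in all), and the median log2 fold change was -0.03. Srebf2 was lower in Mettl3 KD by a log2 fold change of -0.27 ± 0.03 (adjusted p = 7.91e-06), and 5.85% of all genes had a lower value. Abcg1 was lower by -0.37 ± 0.06 (adjusted p = 7.52e-04) and Lrp8 by -0.18 ± 0.03 (adjusted p = 0.00141). Nsdhl was lower by -0.12 ± 0.03 (adjusted p = 0.0229). Scap was higher in Mettl3 KD by 0.16 ± 0.03 (adjusted p = 0.00644) and Mvk by 0.15 ± 0.04 (adjusted p = 0.0355). For each of these 6 genes the libraries of the 2 knockdowns did not overlap; over the 32, Mettl3 KD lay wholly below Mettl14 KD in 10 genes and wholly above it in 3, against 9.21% and 8.43% of all genes, 17.6% in all. The calls of Nsdhl and Mvk were close to the threshold. Nsdhl did not pass when replicate 1, 2 or 4 of Mettl3 KD, or replicate 1 or 4 of Mettl14 KD, was left out (adjusted p = 0.0516 to 0.0985). Mvk did not pass when replicate 2, 3 or 4 of Mettl3 KD, or any of replicates 1 to 3 of Mettl14 KD, was left out (adjusted p = 0.0705 to 0.130), nor with DESeq2 (adjusted p = 0.0822). Of the other 26 genes, Abca1 is an example: its difference was 0.07, with a 95% interval of -0.04 to 0.19. The count of genes lower in Mettl3 KD depended on the fit: it was 9 without scramble replicate 2 and 10 when only the knockdown libraries were fitted. The count over all genes moved with it, to 1091 and 1119, against 628 with all libraries.

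Per transcript length, the 32 genes spanned nearly 2 orders of magnitude in scramble. In TPM, a transcript share computed from the counts and the length of a principal transcript of each gene, Stard4 was highest at 493 ± 28.2 TPM (SD, n = 3), followed by Fdps at 410 ± 5.71, Insig1 at 253 ± 16.7, Msmo1 at 241 ± 7.23 and Sqle at 233 ± 7.19 TPM. The ranges of 1 SD around Insig1, Msmo1 and Sqle overlapped, and those of Stard4 and Fdps did not. Srebf2 came next at 195 ± 11.1 TPM. The exporters were lowest, with Abcg1 at 7.36 ± 0.301 TPM and Abca1 at 5.53 ± 0.366 TPM. In Mettl3 KD Stard4 had 372 ± 2.64 and Fdps 254 ± 4.91 TPM, and in Mettl14 KD they had 377 ± 7.28 and 266 ± 6.67 TPM. The genes called lower included both the most and the least abundant of the 32.

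Calls in the rest of the pathway went in both directions. In Mettl14 KD the share called higher was near that of all genes. Over 6 further lists with 76 genes, 73 of them tested, 17 were lower (23.3%) and 15 higher (20.5%) in Mettl3 KD, against 15.8% and 15.5% of all genes. In Mettl14 KD 16 were lower (21.9%) and 8 higher (11%), against 10.8% and 10.1% of all genes. The same shares of all genes are the background for the counts of each list that follow. The median log2 fold change of the 73 genes was 0.00 in Mettl3 KD and 0.01 in Mettl14 KD. Without scramble replicate 2, 17 of the 73 were lower and 12 higher in Mettl3 KD, against 2155 and 2188 of all 14316 genes tested. In Mettl14 KD 13 were then lower and 10 higher, against 1449 and 1337 of all genes. The counts of single lists below come from the fit with all libraries. Among the 14 other genes of SREBP control, 1 was lower and 4 were higher in Mettl3 KD, and 2 were lower and 1 higher in Mettl14 KD. Srebf1, which encodes the SREBP forms that favour fatty acid synthesis, had 55.9 ± 2.28 CPM in Mettl3 KD, 57.7 ± 3.14 CPM in Mettl14 KD and 94.4 ± 8.48 CPM in scramble. Its log2 fold change was -0.75 ± 0.05 in Mettl3 KD (adjusted p = 2.21e-08) and -0.71 ± 0.05 in Mettl14 KD (adjusted p = 7.33e-08).

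Among 11 other sterol enzymes tested, 4 were lower (36.4%) and 2 higher (18.2%) in Mettl3 KD, and 5 were lower (45.5%) in Mettl14 KD. Lbr, a nuclear envelope protein with the same sterol reductase activity as Tm7sf2, had 111 ± 1.75 CPM in Mettl3 KD, 128 ± 1.32 CPM in Mettl14 KD and 137 ± 3.96 CPM in scramble. Its log2 fold change was -0.30 ± 0.03 in Mettl3 KD (adjusted p = 3.21e-07) and -0.10 ± 0.03 in Mettl14 KD (adjusted p = 0.0222). Cyb5r3, the reductase that feeds electrons to sterol oxidation, was at -0.25 ± 0.03 in Mettl3 KD (adjusted p = 2.66e-06) and -0.26 ± 0.03 in Mettl14 KD (adjusted p = 2.15e-06). The mevalonate and isoprenoid genes outside the sterol line counted 1 of 12 lower and 4 higher in Mettl3 KD, and 1 lower and 3 higher in Mettl14 KD. In that list Acat1, the mitochondrial thiolase, was higher in Mettl14 KD at 0.25 ± 0.05 (adjusted p = 7.93e-04) and at 0.04 ± 0.05 in Mettl3 KD, and Nus1, a subunit of the dolichol synthase, was higher in Mettl3 KD at 0.14 ± 0.04 (adjusted p = 0.00866).

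Among 12 other uptake genes, 6 were lower (50%) and 3 higher (25.0%) in Mettl3 KD, against 15.8% and 15.5% of all genes. In Mettl14 KD 5 were lower (41.7%) and 2 higher (16.7%), against 10.8% and 10.1% of all genes. Lrp1, a large endocytic receptor for remnant lipoproteins, had 46.9 ± 2.51 CPM in Mettl3 KD, 53.0 ± 3.39 CPM in Mettl14 KD and 81.4 ± 4.31 CPM in scramble. Its log2 fold change was -0.80 ± 0.05 in Mettl3 KD (adjusted p = 9.86e-10) and -0.62 ± 0.05 in Mettl14 KD (adjusted p = 4.32e-08). Of 12 tested genes of intracellular cholesterol transport, 3 were lower and 2 higher in Mettl3 KD, and 2 lower and 2 higher in Mettl14 KD. Gramd1b, which moves cholesterol from the plasma membrane to the endoplasmic reticulum, was at -0.46 ± 0.06 in Mettl3 KD (adjusted p = 1.17e-05) and -0.29 ± 0.06 in Mettl14 KD (adjusted p = 0.00205). Tmem97, a binding partner of Npc1, was at -0.17 ± 0.04 in Mettl3 KD (adjusted p = 0.00234) and -0.34 ± 0.04 in Mettl14 KD (adjusted p = 4.06e-06). Beside the exporters, 2 of 12 genes of the LXR and efflux list were lower in Mettl3 KD and 1 in Mettl14 KD. Lpcat3, a phospholipid remodelling enzyme and LXR target, was at -0.46 ± 0.04 in Mettl3 KD and -0.42 ± 0.04 in Mettl14 KD (adjusted p = 8.45e-08 and 5.50e-07). The receptors themselves were not called: Nr1h2 had 48.4 ± 1.60 CPM in Mettl3 KD, 47.1 ± 0.789 CPM in Mettl14 KD and 50.3 ± 3.39 CPM in scramble, and Nr1h3 had 5.04 ± 0.388 CPM in Mettl3 KD, 5.52 ± 0.647 CPM in Mettl14 KD and 4.49 ± 0.367 CPM in scramble. Nr1h3 nonetheless lay wholly above scramble in Mettl14 KD, at 4.84 to 6.38 CPM against 4.08 to 4.80 CPM. Over all genes tested, 14.4% lay wholly above scramble in Mettl14 KD.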

How the data were processed

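Messenger RNA was measured in 11 libraries of alphaTC1-6 cells, grouped by the treatment in the labels: 4 Mettl3 KD, 4 Mettl14 KD and 3 scramble. The authors deposited 1 table of estimated counts per Ensembl gene. The submitters' processing notes name kallisto without a version; no source used here gives the build, annotation or read length. Of the deposited values 11.6% were not whole, and all were rounded. Reads shared between similar transcripts are divided by estimation, which adds error that the counts do not show. Symbols came from a gene name table.

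CPM were scaled with TMM. Genes passing filterByExpr (minimum count 10) numbered 14133 and held 99.9% of counts. All libraries entered 1 edgeR 4.0.16 fit (R 4.3.3) with a mean per group, tested by the robust quasi-likelihood F-test with Benjamini-Hochberg adjustment over all genes tested at 0.05. Each SE was taken as the size of the log2 change over the root of its F value, and 95% intervals use it with 8 degrees of freedom. The common coefficient of variation was 4.38%. Values after ± are SD for CPM and TPM and SE for log2 fold changes. Whether replicates were separate cultures is not stated in the labels; the p-values cover the spread among these samples, which could be technical. No replicate pair agreed within sampling noise (a chi-square of 2.07 or more for each degree of freedom). Scramble replicate 2 stood furthest apart, at 14.5 against scramble replicate 1 and 13.0 against scramble replicate 3. Every other pair was between 2.07 and 3.78. TPM used the length of the APPRIS principal transcript of GENCODE vM21, which is not known to be the authors' annotation. Promoter windows came from RefSeq.

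The 32 genes, the other lists and the tests were chosen with earlier results of these data known. All 32 were named; of the other lists the 2 genes with the smallest adjusted p in each knockdown could be named, and the values of some are not reported here. Nr1h2 and Nr1h3 were named after their values were seen. The fit was also run on simulated data, with the same spread for every gene and no library that stood apart. It therefore cannot tell the error rate with a library such as scramble replicate 2. Alternatives were DESeq2 size factors, no count filter, DESeq2 1.42.0, limma-voom (limma 3.58.1), only the groups compared, a replicate block, and leaving out each library.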

Additional observations from a re-analysis of the deposited data

Results flagged for a closer look

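Dhcr7 had 79.0 CPM in Mettl14 KD replicate 3, apart from the 81.1 to 81.4 CPM of the other Mettl14 KD libraries; the gap was 0.877 of the group's range, above Dixon's 95% critical value for 4 samples. Of 64 groups of 4 libraries examined this was 1, and chance flags about 1 in 20 such groups. The distance is small beside the scramble level of 117 ± 4.44 CPM.

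The effects of the knockdowns differed, by a direct edgeR test of Mettl3 KD against Mettl14 KD, for 6 of the 32 genes. The log2 differences were -0.37 for Abcg1, -0.27 for Srebf2, -0.18 for Lrp8 and -0.12 for Nsdhl, lower in Mettl3 KD, and 0.16 for Scap and 0.15 for Mvk, higher in Mettl3 KD. Against scramble, Scap was called higher in Mettl3 KD and was not called in Mettl14 KD. For Mvk, Mettl14 KD is the lower of the knockdowns. Mettl3 stood at 35.8% of scramble in Mettl3 KD and Mettl14 at 58.1% in Mettl14 KD, and the part of knockdown depth in these differences was not tested.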

How the results depend on the processing

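In 17 alternatives, 11 of which leave out a library, 533 of 544 values of single genes kept direction and call in Mettl3 KD against scramble, 527 in Mettl14 KD against scramble and 508 in Mettl3 KD against Mettl14 KD. Leaving out single libraries gave 24 to 29 genes lower and 1 higher in Mettl3 KD against scramble, 23 to 26 lower and 0 higher in Mettl14 KD against scramble, and 3 to 9 lower and 1 to 2 higher in Mettl3 KD against Mettl14 KD. Over all genes 1900 to 2190 were then lower and 1798 to 2198 higher in Mettl3 KD against scramble. In Mettl14 KD against scramble 1215 to 1581 were lower and 1061 to 1510 higher. In Mettl3 KD against Mettl14 KD 414 to 1091 were lower and 278 to 1034 higher, of 14053 to 14377 genes tested. The median log2 fold change then ran between -0.44 and -0.37 in Mettl3 KD against scramble, -0.41 and -0.34 in Mettl14 KD against scramble, and -0.03 and -0.02 in Mettl3 KD against Mettl14 KD. This last comparison also gave 10 lower when only its groups were fitted and 1 higher with DESeq2. The replicate numbers did not pair the libraries: deviations of same-numbered libraries correlated between -0.12 and 0.06 over 10 pairs, and those of other pairs between -0.12 and 0.19 over 30. With the number as a block, 25 were lower and 1 higher in Mettl3 KD, 23 lower and 0 higher in Mettl14 KD, and 4 lower and 2 higher in Mettl3 KD against Mettl14 KD; over all genes 1930 were lower and 1854 higher in Mettl3 KD, 1262 lower and 1073 higher in Mettl14 KD, and 474 lower and 365 higher in Mettl3 KD against Mettl14 KD.

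Values that changed sign under an alternative were not called there. Leaving out single libraries gave these ranges: in Mettl3 KD against scramble, -0.11 to 0.03 for Ebp and -0.03 to 0.01 for Mbtps1 and for Npc1; in Mettl14 KD against scramble, -0.03 to 0.04 for Scap, -0.01 to 0.02 for Mbtps1, -0.02 to 0.01 for Npc1, -0.08 to 0.00 for Npc2 and -0.02 to 0.06 for Soat1; in Mettl3 KD against Mettl14 KD, -0.03 to 0.01 for Npc1, -0.01 to 0.04 for Acat2, -0.01 to 0.02 for Sqle, -0.01 to 0.03 for Cyp51, -0.01 to 0.06 for Tm7sf2 and -0.02 to 0.03 for Sc5d. Ebp in Mettl3 KD passed the test at the low end, without scramble replicate 2. With no count filter, Scap and Mbtps1 in Mettl14 KD against scramble were at 0.00 with the opposite sign. The cause was not tested.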
